A study of Mus musculus with 15 samples.

Results

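The genes Gp9, Gp1ba, Gp1bb, Gp5, Gp6 and Treml1 encode receptors of the platelet surface. They were taken by gene name from a table of RNA levels in mouse aortic valves, where all 6 names were present among 18073 genes. The genes were selected on the group values themselves, chosen by their far lower levels in Notch1 heterozygous valves, so the levels and folds below describe them and are not tested. Platelets have no nucleus and carry RNA made by their parent cell, the megakaryocyte. The products of Gp1ba, Gp1bb, Gp9 and Gp5 form the GPIb-IX-V complex, which tethers platelets to von Willebrand factor on an injured vessel wall. Gp6 encodes GPVI, the collagen receptor that signals through the Fc receptor gamma chain, and Treml1 encodes TLT-1, a receptor stored in platelet alpha-granules that reaches the surface on activation.

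RNA was isolated from collagenase-treated valve leaflets, 3 from each of 15 C57BL/6 mice aged 2 months, in 4 groups. N1het_TercG2 (4 mice) had 1 working copy of Notch1 on the mTRG2 background, by the usual naming generation 2 of mice without Terc, the telomerase RNA gene, and is called heterozygous with short telomeres here. N1WT_TercG2 (3 mice) was Notch1 wild type on the same background. N1het_TercWT (4 mice) was Notch1 heterozygous and N1WT_TercWT (4 mice) Notch1 wild type, both with wild-type Terc and long telomeres. The table gives 1 FPKM, a fragment count scaled to transcript length and library total, per gene and group, and marks the genes its authors called different. The title of the series puts telomere length forward as a modifier of Notch1 haploinsufficiency.

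The group FPKM was the plain mean over the libraries of the group, and its steps at low values gave each library's fragment total as a whole number. The totals were 735652, 3043876, 3974554 and 9383247 fragments in heterozygous valves with short telomeres and 2948841, 4397697 and 7503989 fragments in wild-type valves with short telomeres. They were 3629191, 4279418, 4517905 and 8528591 fragments in long-telomere heterozygous valves, against 2341713, 3851723, 4763641 and 4991342 fragments in wild-type valves with long telomeres. Libraries are numbered within a group by rising total, and library 2 of heterozygous valves with short telomeres is that of 3043876 fragments. These are not the numbers in the labels, since which mouse each library came from is not known. FPKM per library could be recovered for 5 of the 6 genes in both heterozygous groups and for 4 of them in wild-type valves with short telomeres. Gp1ba in every group, Gp9 in both wild-type groups and all 6 genes in wild-type valves with long telomeres have a group value alone.

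As a check of the labels, Terc was listed at 0 FPKM in both groups with short telomeres, against 4.52 FPKM in heterozygous and 1.42 FPKM in wild-type valves with long telomeres. Notch1 had 23.3 FPKM in the valves labelled heterozygous with short telomeres, against 16.6 FPKM in those labelled wild type with short telomeres, so its total RNA did not run with the label there. Every direction given for short telomeres is therefore between groups as labelled. With long telomeres Notch1 had 25.1 FPKM in heterozygous and 39.1 FPKM in wild-type valves. The 11 marker genes of valve interstitial cells were all above 0 in every group, with summed levels between 4523 and 7350 FPKM, and the 10 cardiomyocyte markers summed to 3764 to 6287 FPKM.

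Promoters are shown because the 6 genes were low together in heterozygous valves and each holds GATAA or GATAG upstream of its start; neither form alone is in all 6. The 250 bases before each annotated start were taken from RefSeq, build GRCm38.p6, in which all 6 genes were matched: Gp1ba at chr11:70638872-70639121 on the plus strand, Gp1bb at chr16:18622404-18622653 on the minus strand, Gp9 at chr6:87777820-87778069 on the plus strand, Gp5 at chr16:30310782-30311031 on the minus strand, Gp6 at chr7:4397745-4397994 on the minus strand and Treml1 at chr17:48359666-48359915 on the plus strand. They are written 5′ to 3′ on the gene's strand, with GATAA and likewise GATAG in capitals, also where they lie on the opposite strand and read TTATC or else CTATC. These are core forms bound by GATA factors such as GATA1, a regulator of megakaryocyte genes.
Gp1ba: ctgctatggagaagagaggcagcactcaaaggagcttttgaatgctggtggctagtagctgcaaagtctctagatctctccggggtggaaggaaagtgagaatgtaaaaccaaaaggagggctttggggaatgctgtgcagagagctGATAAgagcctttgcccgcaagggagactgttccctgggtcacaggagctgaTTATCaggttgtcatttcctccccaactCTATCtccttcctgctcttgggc
Gp1bb: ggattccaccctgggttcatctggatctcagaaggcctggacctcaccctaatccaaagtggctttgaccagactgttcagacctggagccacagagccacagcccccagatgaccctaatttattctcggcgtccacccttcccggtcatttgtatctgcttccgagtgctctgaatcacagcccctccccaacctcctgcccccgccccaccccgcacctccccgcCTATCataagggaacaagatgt
Gp9: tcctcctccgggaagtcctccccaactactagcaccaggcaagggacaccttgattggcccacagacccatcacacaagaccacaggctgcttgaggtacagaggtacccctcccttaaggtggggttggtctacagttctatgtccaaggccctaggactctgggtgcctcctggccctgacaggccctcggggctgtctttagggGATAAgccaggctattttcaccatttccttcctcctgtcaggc
Gp5: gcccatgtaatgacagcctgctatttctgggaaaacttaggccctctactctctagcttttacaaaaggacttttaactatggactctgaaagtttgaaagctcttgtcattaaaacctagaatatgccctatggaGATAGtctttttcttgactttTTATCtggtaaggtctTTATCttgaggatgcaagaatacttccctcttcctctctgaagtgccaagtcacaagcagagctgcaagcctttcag
Gp6: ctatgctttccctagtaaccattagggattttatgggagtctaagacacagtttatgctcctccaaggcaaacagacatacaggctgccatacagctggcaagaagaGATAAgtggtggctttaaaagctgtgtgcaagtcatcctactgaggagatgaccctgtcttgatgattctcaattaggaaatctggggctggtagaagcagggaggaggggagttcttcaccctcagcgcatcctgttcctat
Treml1: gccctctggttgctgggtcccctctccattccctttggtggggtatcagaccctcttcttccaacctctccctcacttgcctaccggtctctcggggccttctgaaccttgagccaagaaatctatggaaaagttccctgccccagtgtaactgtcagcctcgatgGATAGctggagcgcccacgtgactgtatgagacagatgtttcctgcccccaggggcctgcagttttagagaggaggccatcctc

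GATAA or GATAG, read on both strands, was present in the window of all 6 genes and in 37.4% of 32851 promoters of the same length. GATAA alone was found in 4 of the 6 genes (Gp1ba, Gp9, Gp5 and Gp6), against 22.6% of all promoters. GATAG was found in 4 (Gp1ba, Gp1bb, Gp5 and Treml1), against 20.6%. GGAAG, the core bound by ETS factors such as FLI1, was present in 5 of the 6 genes, all but Gp6, and in 64.1% of all promoters. No 2 matches overlapped in these windows. The motifs, and the joining of GATAA with GATAG, were chosen after the promoters had been read, and a match is a run of letters, not a measured binding site.

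**Figure D1:**
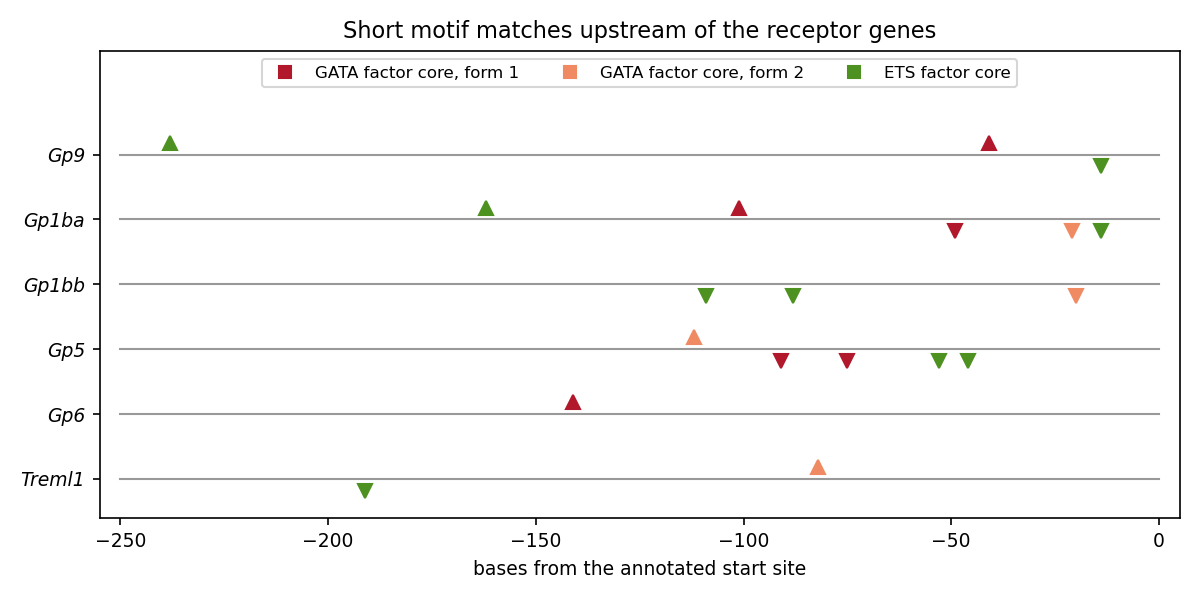
Positions of short motif matches in the 250 bases before the annotated start of each receptor gene, in bases from the start (horizontal axis). Triangles point up for the gene's strand and down for the other strand, and colours mark GATAA (form 1), GATAG (form 2) and GGAAG (ETS factor core); each gene has at least 1 GATA factor core.

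The receptor genes stood low in heterozygous valves and among the better expressed genes in wild-type valves. Their summed level was 28.4 FPKM in heterozygous and 528 FPKM in wild-type valves with short telomeres, and 5.95 FPKM in heterozygous and 749.7 FPKM in wild-type valves with long telomeres. In wild-type valves with long telomeres Gp9 exceeded 99.6% of all genes and Gp5, the lowest of the 6, exceeded 72.8%. Gp9 exceeded 81.4% and the other 5 genes 12.4% to 39.0% of genes in heterozygous valves with short telomeres. In heterozygous valves with long telomeres Gp9 exceeded 27.1% and Treml1 exceeded 1.69% of genes. Levels are from whole leaflets, where fewer platelets or megakaryocytes and less RNA per cell cannot be told apart.

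**Figure D2:**
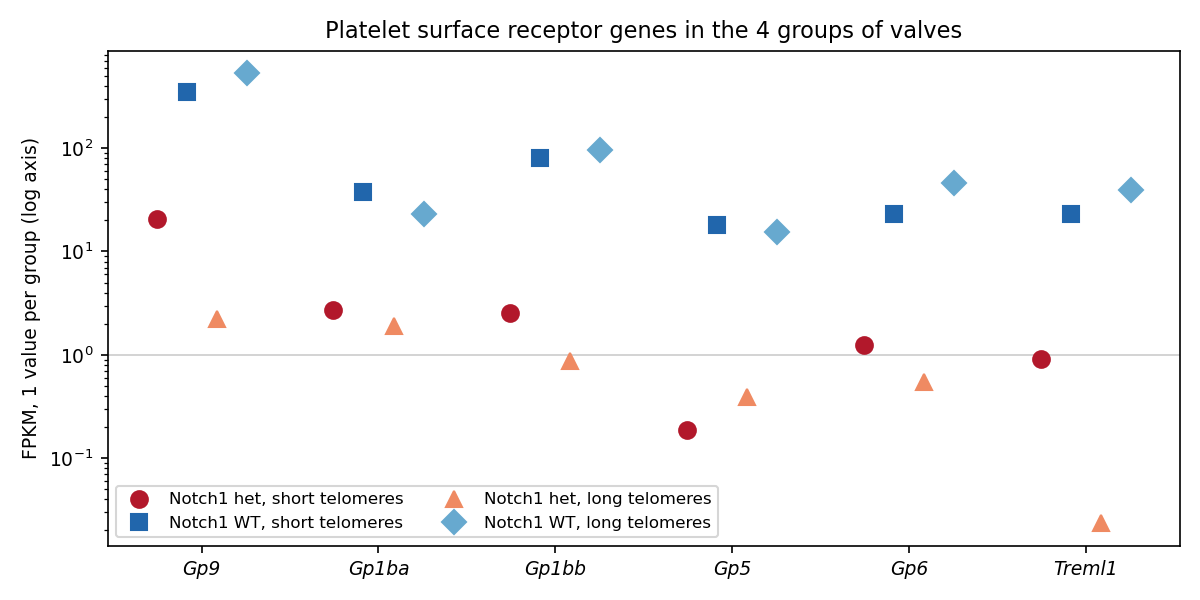
FPKM of each receptor gene on a log axis, 1 deposited value per group and no error. For every gene both heterozygous groups lie below both wild-type groups, with 20.8 and 2.21 FPKM of Gp9 in heterozygous valves with short and long telomeres, against 346 and 531 FPKM in wild-type valves.

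The level in a group often came from 1 library, and this bears on every comparison below. In heterozygous valves with short telomeres library 2 was the highest for all 5 genes with values per library and held 84.8% to 100% of their summed FPKM. In wild-type valves with short telomeres library 2 was the highest for all 4 such genes and held 76.0% to 94.6%. In heterozygous valves with long telomeres no library led throughout: library 4 was the highest for 3 genes and library 3 for 2. In wild-type valves with long telomeres several sets of library values fit each group mean, 3 sets for Gp1bb, 10 for Gp6, 11 for Treml1 and 16 for Gp5. In the most uneven of these sets library 4 held 98.1% to 100%, and in the most even set the largest share of 1 library was 73.8% for Gp1bb and 34.2% for Gp5. The libraries that led for the receptors also led for some markers of other blood cells, but not for all. Library 2 of heterozygous valves with short telomeres was the highest for 10 of 11 neutrophil and 6 of 9 thymocyte genes with values per library. It was the highest for 1 of 6 B cell genes. Library 2 of wild-type valves with short telomeres was the highest for 10 of 10 thymocyte and 2 of 5 B cell genes. It led 4 of 10 neutrophil genes there, as did library 3. The part of these cells in the receptor levels was not tested.

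**Figure D3:**
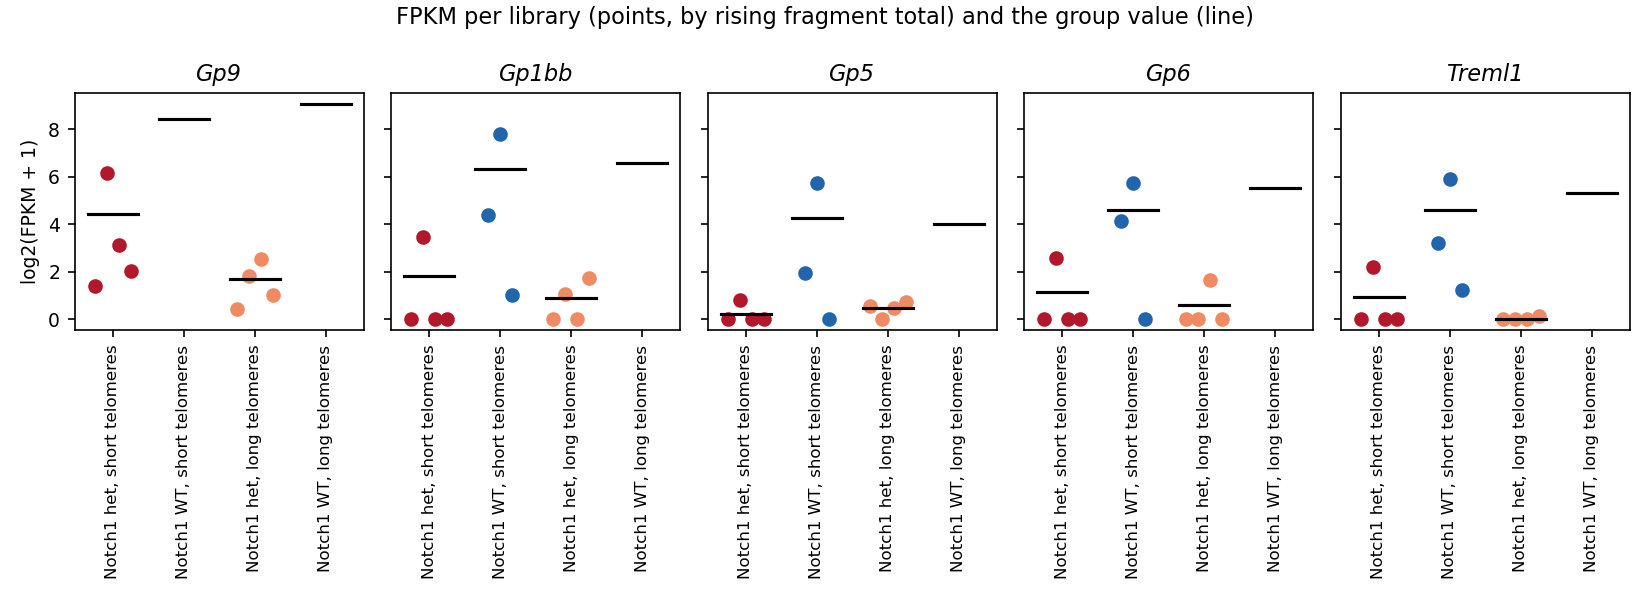
Recovered FPKM per library as log2(FPKM + 1), 1 point per library in order of rising fragment total within a group, with the deposited group value as a line; groups with a line alone were not resolved. The second point of each group with short telomeres is the highest of its group for every gene with points there, and the points of heterozygous and wild-type valves with short telomeres overlap for the 4 genes that have both.

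Gp1ba encodes GPIb-alpha, the subunit that binds von Willebrand factor. It had 2.69 FPKM in heterozygous and 37.4 FPKM in wild-type valves with short telomeres, and 1.92 FPKM in heterozygous and 23.3 FPKM in wild-type valves with long telomeres. It had the smallest folds of the 6 between Notch1 genotypes, with log2 folds (FPKM + 1 throughout) of -3.38 with short and -3.06 with long telomeres. Its values per library were not resolved. A single library could hold at most 10.8 FPKM in heterozygous and 112 FPKM in wild-type valves with short telomeres if the rest held none.

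Gp1bb encodes GPIb-beta, which is disulfide-linked to GPIb-alpha. It had 0, 10.2, 0 and 0 FPKM in the 4 libraries of heterozygous valves with short telomeres, in order of rising total, against 20.0, 219 and 1.03 FPKM in the 3 libraries of wild-type valves with short telomeres. The group values were 2.55 FPKM in heterozygous and 80.1 FPKM in wild-type valves, a log2 fold of -4.52, and the libraries overlapped, since the lowest wild-type library lay below the highest heterozygous one. The single heterozygous library with signal rested on 20 fragments, and the wild-type libraries on 38, 622 and 5 fragments. With long telomeres the heterozygous libraries had 0, 1.09, 0 and 2.36 FPKM, against a group value of 95.1 FPKM in wild-type valves, a log2 fold of -5.69. The gene model of Gp1bb overlaps that of Sept5, a septin gene, on the same strand, so part of its fragments could be shared. Sept5 had 9.77 FPKM in heterozygous and 6.23 FPKM in wild-type valves with short telomeres, and 5.58 FPKM in heterozygous and 13.1 FPKM in wild-type valves with long telomeres.

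Gp9 encodes GPIX, which holds the complex together and is needed for its surface display. It had 1.68, 70.5, 7.76 and 3.15 FPKM in the libraries of heterozygous valves with short telomeres, against a group value of 346 FPKM in wild-type valves with short telomeres. Gp9 was thus detected in all 4 of these heterozygous libraries, on 1, 174, 25 and 24 fragments, where the other 4 resolved genes were at 0 in all but library 2. In heterozygous valves with long telomeres its libraries had 0.340, 2.59, 4.91 and 1.01 FPKM, against 531 FPKM in wild-type valves with long telomeres. The log2 fold of -7.37 with long telomeres was the most negative of the 6 genes, and that with short telomeres was -4.00. Without library 2 of the heterozygous valves the log2 fold with short telomeres was -6.06.

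Gp5 encodes GPV, the loosely held partner of the complex that thrombin cleaves. It had 0, 0.748, 0 and 0 FPKM in heterozygous libraries with short telomeres, against 2.93, 51.8 and 0 FPKM in wild-type libraries with short telomeres, and the groups overlapped at 0. The group values were 0.187 FPKM in heterozygous and 18.2 FPKM in wild-type valves, a log2 fold of -4.02. With long telomeres its heterozygous libraries had 0.502, 0, 0.403 and 0.641 FPKM, against 15.4 FPKM in wild-type valves, a log2 fold of -3.56. These heterozygous levels rested on 4, 0, 4 and 12 fragments.

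Gp6 encodes the collagen receptor GPVI. It had 0, 4.96, 0 and 0 FPKM in heterozygous libraries with short telomeres, against 16.5, 52.5 and 0 FPKM in wild-type libraries with short telomeres. Wild-type library 3 thus held none, as did 3 heterozygous ones, and a count of 0 allowed up to 0.355 FPKM in that wild-type library (3 fragments). In the shallowest heterozygous library, of 735652 fragments, a count of 0 allowed up to 3.62 FPKM, which is above the group mean, so a count of 0 there does not tell absence from a level near that mean. The group values were 1.24 FPKM in heterozygous and 23.0 FPKM in wild-type valves, a log2 fold of -3.42. With long telomeres Gp6 was at 2.16 FPKM in heterozygous library 3 and at 0 in the other 3, against 45.7 FPKM in wild-type valves, a log2 fold of -4.92.

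Treml1 encodes TLT-1. It had 0, 3.69, 0 and 0 FPKM in heterozygous libraries with short telomeres, against 8.42, 59.6 and 1.39 FPKM in wild-type libraries with short telomeres, so each wild-type library held the transcript and the lowest lay below the highest heterozygous one. The group values were 0.921 FPKM in heterozygous and 23.1 FPKM in wild-type valves, a log2 fold of -3.65. With long telomeres 1 fragment was found across the 4 heterozygous libraries, in library 4, at 0.0940 FPKM. The wild-type value with long telomeres was 39.2 FPKM and the log2 fold -5.30, and a value on 1 fragment gives this fold no firm size.

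In the authors' deposited table all 6 genes were called lower in heterozygous than in wild-type valves with long telomeres, where 0.271% of all genes were called lower. Since the genes were chosen for this contrast, nothing further is read from the count. The median log2 fold was -5.11, beside 0.09 over all genes. For short telomeres 5 of the 6 were called lower in the authors' deposited table, where 0.36% of all genes were called lower, with a median log2 fold of -3.82 beside 0.06 over all genes. The gene not called was Gp6, which passed a 4-fold ratio, as 3.05% of all genes did in that direction. The authors' deposited table also called all 6 lower in heterozygous valves with short telomeres than in wild-type valves with long telomeres, where 0.31% of genes were called lower, with log2 folds from -4.76 for Gp1bb to -2.72 for Gp1ba. These comparisons share groups with each other.

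The contrast with short telomeres depended on both libraries that stood apart. Over Gp1bb, Gp5, Gp6 and Treml1 its median log2 fold was -3.83. Without heterozygous library 2 all 4 genes were at 0 in heterozygous valves and the median was -4.59. Without wild-type library 2 the wild-type values were 10.5 FPKM for Gp1bb, 1.47 FPKM for Gp5, 8.27 FPKM for Gp6 and 4.91 FPKM for Treml1, and the median was -1.66. Without the wild-type library the log2 folds ran from -2.05 for Gp6 to -1.06 for Gp5. With the heterozygous values at 0, a lower level there was fixed in advance. The genes were chosen for lower levels in heterozygous valves, so neither omission tests the direction. With any 1 heterozygous library with long telomeres left out, the median of these genes was between -5.38 and -5.02 in the contrast with long telomeres. The heterozygous group values there were near 0 already, from 0.0235 FPKM for Treml1 to 0.863 FPKM for Gp1bb, so such an omission could move the folds little. Wild-type libraries with long telomeres could not be left out, since several sets of values fit. Dependence of this contrast on 1 wild-type library was therefore not tested.

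**Figure D4:**
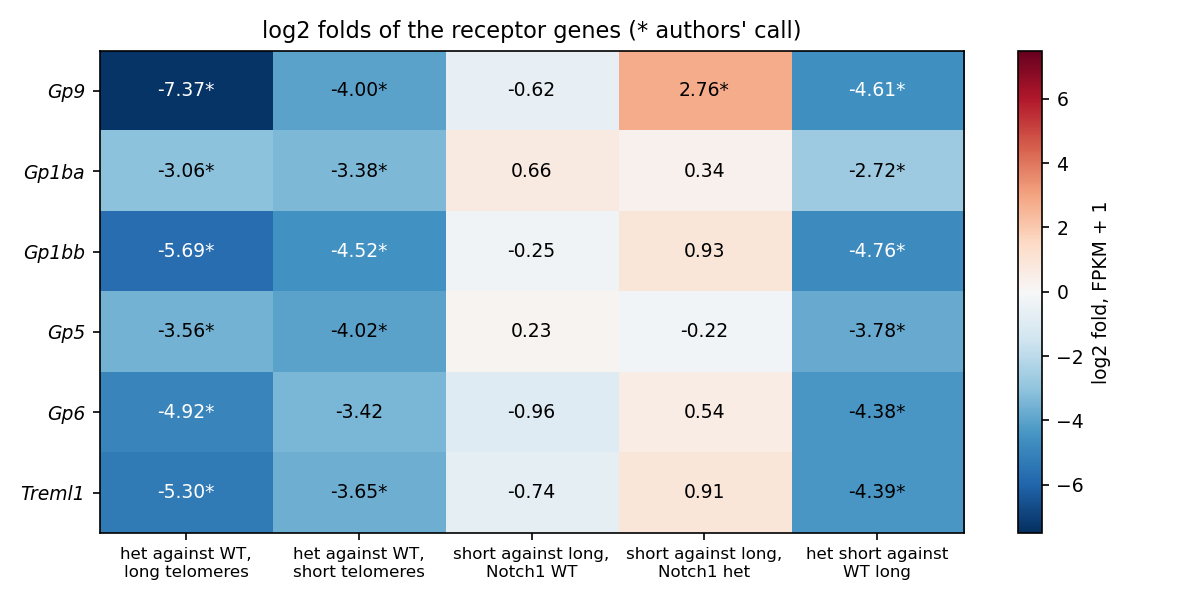
log2 fold of FPKM + 1 for each receptor gene (rows) in the 5 comparisons (columns), coloured from blue (lower in the first-named group) to red (higher), with a star where the authors' deposited table calls the gene. The 3 comparisons of heterozygous with wild-type valves hold folds from -7.37 to -2.72 with 6, 5 and 6 calls, and Gp9 between the heterozygous groups is the only positive fold called, at 2.76.

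Short against long telomeres gave small folds in wild-type valves. Gp9 had 346 FPKM with short and 531 FPKM with long telomeres, a log2 fold of -0.62, and Gp6 had the lowest fold, -0.96. Gp1ba at 0.66 and Gp5 at 0.23 were higher with short telomeres. None of the 6 was called in the authors' deposited table, where 0.686% of all genes were called in either direction. The median log2 fold was -0.43, beside -0.23 over all genes. The folds turned on single libraries: without short-telomere library 2 Gp5 had a log2 fold of -2.73 and the median of the 4 resolved genes was -2.75, against -0.49 with all libraries. Without short-telomere library 3 that median was 0.064.

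In heterozygous valves 5 of the 6 genes had higher group values with short than with long telomeres, and Gp5 the reverse. Gp9 had 20.8 FPKM with short and 2.21 FPKM with long telomeres, a log2 fold of 2.76, and was the one gene of the 6 called in the authors' deposited table, where 0.0775% of all genes were called higher. Its libraries overlapped, from 1.68 to 70.5 FPKM with short and from 0.340 to 4.91 FPKM with long telomeres, and without short-telomere library 2 its log2 fold was 0.69. The other folds were 0.93 for Gp1bb, 0.91 for Treml1, 0.54 for Gp6, 0.34 for Gp1ba and -0.22 for Gp5. Without the same library Gp1bb, Gp6 and Treml1 were at 0 with short telomeres and their folds turned negative.

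The genes did not keep a fixed ratio to each other across groups. Gp9 was the highest of the 6 in every group, and made up 73.2% of the summed FPKM in heterozygous and 65.6% in wild-type valves with short telomeres. With long telomeres its share was 37.2% in heterozygous and 70.8% in wild-type valves. The level of Gp9 was 7.71 times that of Gp1ba in heterozygous and 9.26 times in wild-type valves with short telomeres, and 1.15 times in heterozygous and 22.8 times in wild-type valves with long telomeres. Gp5 was the lowest in 3 groups and Treml1 in heterozygous valves with long telomeres. The order within a library was not the same throughout. In wild-type valves with short telomeres Gp6 and Treml1 changed places between libraries. In heterozygous valves with short telomeres library 2 alone gave an order beyond Gp9. First place is not firm in heterozygous valves with long telomeres, where Gp9 had 2.21 FPKM and Gp1ba 1.92 FPKM. Library 4 there had 1.01 FPKM of Gp9 and 2.36 FPKM of Gp1bb.

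Other platelet genes had negative but smaller median folds in heterozygous against wild-type valves. Platelet contents, 22 genes for granule proteins and cytoskeleton, summed to 1230 FPKM in heterozygous and 3207 FPKM in wild-type valves with short telomeres, and to 574.5 FPKM in heterozygous and 4527 FPKM in wild-type valves with long telomeres. The 6 receptor genes summed to 2.30% of that in heterozygous and 16.5% in wild-type valves with short telomeres, and to 1.03% in heterozygous and 16.6% in wild-type valves with long telomeres. These shares differ by log2 ratios of -2.84 with short and -4.00 with long telomeres, which shrink to -0.92 and -1.84 when the receptors are taken over Itga2b, the integrin alpha-IIb gene, in place of the contents. The authors' deposited table called 4 of the 22 contents lower in heterozygous than wild-type valves with short telomeres, with a median log2 fold of -0.82, and 12 of 22 with long telomeres, with a median of -2.35. Ppbp, a platelet chemokine, had 85.9 FPKM in heterozygous and 850 FPKM in wild-type valves with short telomeres, and 12.9 FPKM in heterozygous and 1636 FPKM in wild-type valves with long telomeres. Tubb1, the platelet beta-tubulin, had 0, 10.6, 0 and 0.164 FPKM in heterozygous libraries with short telomeres, against 27.3, 123 and 0 FPKM in wild-type libraries. The same libraries led as for the receptors, which did not hold for every platelet gene. With short telomeres, heterozygous library 2 led 3 of 4 contents with values per library, 5 of 9 other platelet receptors and 0 of 3 megakaryocyte regulators. Wild-type library 2 led 2 of 3, 5 of 8 and 2 of 4. Nrgn and Alox12, the platelet 12-lipoxygenase, were likewise called lower with long telomeres.

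Of 25 other platelet receptor genes the authors' deposited table called 4 lower in heterozygous valves with short telomeres, where the median log2 fold was -0.59, and 8 with long telomeres, where it was -0.55. Itga2b, integrin alpha-IIb of the fibrinogen receptor, had 1.49 FPKM in heterozygous and 14.7 FPKM in wild-type valves with short telomeres, and 0.803 FPKM in heterozygous and 28.4 FPKM in wild-type valves with long telomeres. Itgb3, its beta-3 partner, had 7.58 FPKM in heterozygous and 45.4 FPKM in wild-type valves with short telomeres, and was called with long telomeres alone, at 5.90 FPKM in heterozygous and 54.7 FPKM in wild-type valves. Clec1b, the podoplanin receptor CLEC-2, had 0.276 FPKM in heterozygous and 11.1 FPKM in wild-type valves with long telomeres and was called there. Cd226, an adhesion receptor, and F2rl2, a protease-activated receptor, were called lower with long telomeres as well.

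**Figure D5:**
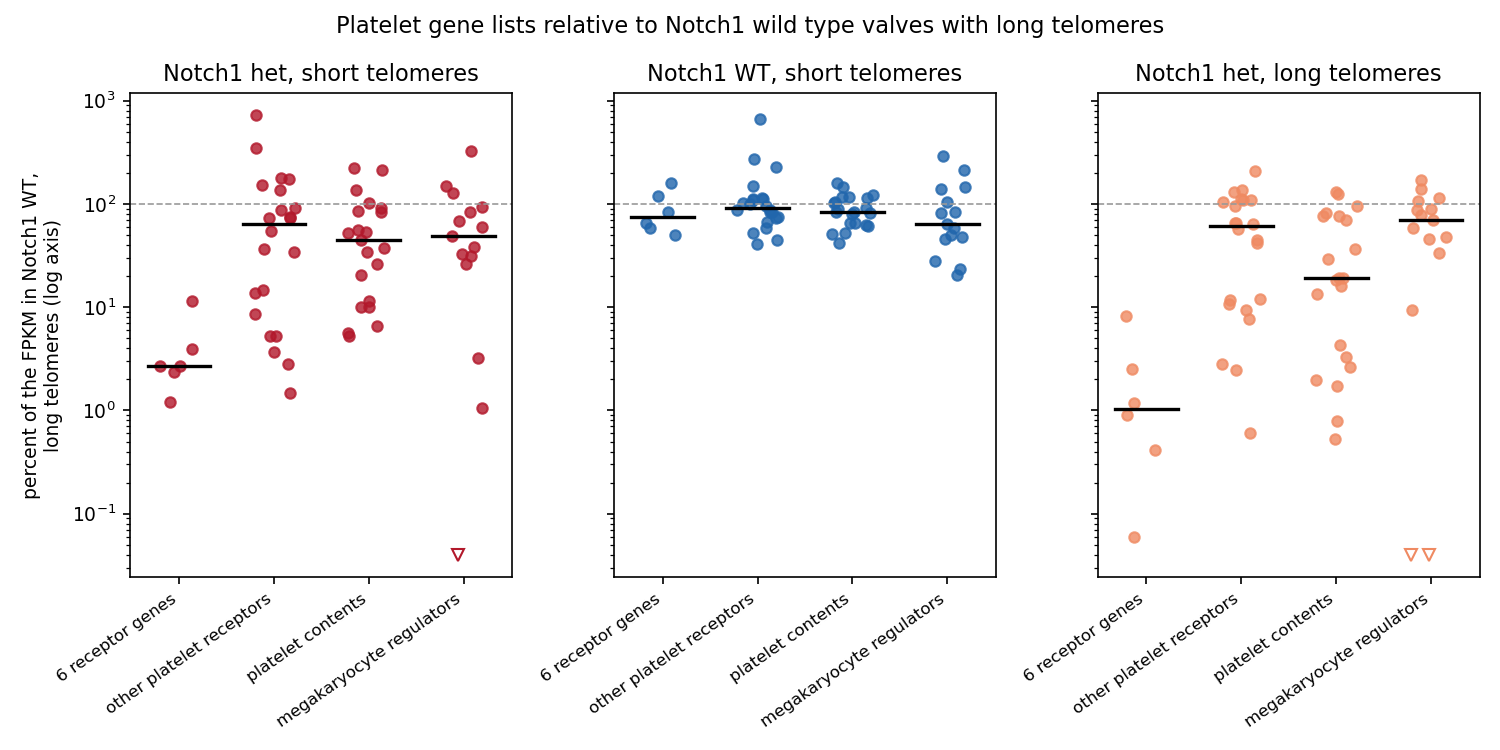
FPKM as a percentage of that in wild-type valves with long telomeres (log axis), for genes at 1 FPKM or more there; points are genes, bars medians, open triangles genes listed at 0, and the dashed line marks 100%. The receptor genes have medians of 2.69% in heterozygous and 74.7% in wild-type valves with short telomeres and 1.04% in heterozygous valves with long telomeres, while the other platelet receptors have 63.5% in heterozygous and 91.8% in wild-type valves with short telomeres and 61.0% in heterozygous valves with long telomeres.

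Genes whose proteins work with the receptors but are made by many cell types were mostly not called. Fcer1g, the gamma chain that GPVI needs and that myeloid cells also express, had 304 FPKM in heterozygous and 250.5 FPKM in wild-type valves with short telomeres, and 177 FPKM in heterozygous and 245 FPKM in wild-type valves with long telomeres. Among 19 GPVI signalling genes the authors' deposited table called 1 lower in heterozygous valves with short telomeres (Lat, an adaptor also used by T cells, at 4.68 FPKM in heterozygous and 63.7 FPKM in wild-type valves) and none with long telomeres. The ligand Vwf, made by endothelial cells and megakaryocytes, had 6.21 FPKM in heterozygous and 24.2 FPKM in wild-type valves with short telomeres, and 5.17 FPKM in heterozygous and 23.7 FPKM in wild-type valves with long telomeres, and was not called. None of 12 genes for ligands and partners of GPIb, Thbs1, Flna and Ywhaz among them, and none of 10 for GPVI ligands such as Col1a1, Col3a1 and Fn1, was called in either Notch1 comparison. Of all 18073 genes 86 were called with short and 75 with long telomeres, in either direction. With so few calls nothing is read from their absence in these lists.

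The 15 regulators of megakaryocytes summed to 224 FPKM in heterozygous and 235 FPKM in wild-type valves with short telomeres, and to 222 FPKM in heterozygous and 265 FPKM in wild-type valves with long telomeres. Gfi1b, a repressor needed for the erythroid and megakaryocyte lineages, was listed at 0 in both heterozygous groups and had 10.2 FPKM with short and 4.82 FPKM with long telomeres in wild-type valves. Its fragments came from 1 library in each wild-type group: 116 of 116 in library 2 with short telomeres and 83 of 83 in library 4 with long telomeres. Gata1, a regulator of both lineages, had 47 fragments in the same library 4 and 3 in library 2 of wild-type valves with long telomeres, and was listed at 0 in heterozygous valves with long telomeres. Only some other platelet genes had a single set of library values in wild-type valves with long telomeres. Of 5 such platelet receptor genes, 3 were highest in library 1, 1 in library 3 and 1 in library 4 (P2rx1, for an ATP receptor). The 1 such gene of platelet contents was highest in library 1. Apart from P2rx1 and 1 other, these receptor and contents genes were below 1 FPKM in that group. Their leading library therefore rests on low values. Several sets fit for others, such as Tubb1 and Clec1b, so their leading library is not known. In the most uneven sets library 4 held 100% of Tubb1 and 99.2% of Clec1b. In the most even sets the largest share of 1 library was 32.2% for Tubb1 and 27.9% for Clec1b. Nfe2, which drives platelet release, had 0.270 FPKM in heterozygous and 12.1 FPKM in wild-type valves with short telomeres, and 0.792 FPKM in heterozygous and 8.36 FPKM in wild-type valves with long telomeres. Of the 15 regulators the authors' deposited table called 2 lower in heterozygous valves with short telomeres and 1 with long telomeres, and Lyl1 and Mkl1 were not called.

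Markers of other cell types differed between the same groups. All 9 red cell markers were lower in heterozygous than wild-type valves with short telomeres and 8 of 9 with long telomeres. They summed to 15909 FPKM in heterozygous and 29113 FPKM in wild-type valves with short telomeres, and to 7531 FPKM in heterozygous and 17216 FPKM in wild-type valves with long telomeres, none being at 0 in any group. They were also higher with short than with long telomeres in both Notch1 genotypes, whereas 4 of the 6 receptor genes in wild-type valves were lower with short telomeres. Neutrophil markers, 15 genes, summed to 196.5 FPKM in heterozygous and 1878 FPKM in wild-type valves with short telomeres, and to 49.8 FPKM in heterozygous and 17.8 FPKM in wild-type valves with long telomeres, where 4 of them, Ly6g, Elane, Camp and Ngp, were at 0 in the wild type. The 14 thymocyte and T cell genes summed to 23.1 FPKM in heterozygous and 223 FPKM in wild-type valves with short telomeres, where all 14 were lower and the authors' deposited table called 6 lower, with a median log2 fold of -2.80. With long telomeres they ran the other way, at 1462 FPKM in heterozygous and 154 FPKM in wild-type valves, with 9 called higher and a median of 3.17. The 8 smooth muscle markers ran with the receptors with long telomeres, at 280 FPKM in heterozygous and 1252 FPKM in wild-type valves, all 8 lower and 4 called, with a median of -2.80. With short telomeres they had 493 FPKM in heterozygous and 625 FPKM in wild-type valves, none called, with a median of -0.64. Of 10 cardiomyocyte markers 1 was called lower in heterozygous valves with long telomeres, where 0.271% of all genes were called lower. Their log2 folds there ran from -3.96 to 2.23, 2 of them below 0, with a median of 0.33. With short telomeres none of them was called and the median was 0.88. None of the B cell, macrophage, endothelial, interstitial or mast cell markers was called in either Notch1 comparison. Few genes were called at all, 86 of 18073 with short and 75 with long telomeres, so nothing is read from this. The part of other cells in the receptor results was not tested.

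The genes nearest in profile were found over the 4 group values, by the root mean square difference of log2(FPKM + 1) from the mean profile of the 6 after centring, among 15038 genes at a mean of 1 FPKM or more. Those named here are Tubb1 (0.33), Gchfr (0.35), F5 (0.39), Nrgn (0.41), U1 (0.53), Slc6a4 (0.56), Alox12 (0.57), Itga2b (0.59) and Rgs18 (0.64). Of the 10 nearest, 7 stand in the lists of platelet receptors or contents. By the same measure the 6 genes themselves lay between 0.17 for Treml1 and 0.93 for Gp9 from their own mean, so none of the nearest genes lay farther from it than Gp9. Slc6a4, the serotonin transporter, had 0.526 FPKM in heterozygous and 17.0 FPKM in wild-type valves with short telomeres, and 0.0591 FPKM in heterozygous and 10.8 FPKM in wild-type valves with long telomeres. Gchfr, the regulator of GTP cyclohydrolase, had 1.73 FPKM in heterozygous and 44.3 FPKM in wild-type valves with short telomeres, and 1.03 FPKM in heterozygous and 32.2 FPKM in wild-type valves with long telomeres. With 4 group values a likeness of this kind is a description.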

How the data were processed

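Valve leaflet cDNA was made with the NuGen Ovation V2 kit, which does not keep the strand, and, per the labels' protocols, read as 100 bp pairs with 4 libraries to a lane. The submitters' processing notes list build mm9, TopHat, Picard, SAMtools and FastQC. What produced the FPKM values and the calls is not given in the sources used here. Per the file headers, the authors deposited 1 FPKM per gene and group and 5 columns of 0 or 1 marking called genes. Columns 8 and 9 share a header and were assigned by the pair of groups in which every called gene passed a 4-fold ratio.

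Log2 folds are on FPKM + 1. The members and gene lists were chosen with earlier results of these data known, and the named genes are all members, the 4 of each platelet list with the widest range, the 3 highest of each signalling and ligand list, 10 nearest profiles, and Fcer1g, Vwf, Itga2b, Itgb3 and Clec1b. Gata1, P2rx1 and Sept5 were named after their values were seen, and 1 gene that the rule names is not reported here. Values per library were recovered from the FPKM: the steps of low values gave 15 fragment totals within 0.0411 of whole numbers and accounted for 737 of 1025 low values to 0.1%. For each gene, whole fragments per library were then solved with a length between 0.5 and 1.5 times its annotated transcripts, kept where under 0.05 lengths would fit by chance; the counts are the smallest that fit. No comparison between groups was tested, because the table has 1 value per group, values per library were recovered for part of the genes, and the members were chosen on these contrasts. Libraries shared no label for batch, and differences between them measure spread between mice with technical noise. Limits from 3 fragments cover counting error only. The scripts were tested on simulated data. Analyses ran in Python 3.11.15 with matplotlib 3.10.9, pandas 2.3.3 and numpy 2.4.6.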

Additional observations from a re-analysis of the deposited data

Results flagged for a closer look

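Among 10 sets of 4 library values (5 genes in 2 heterozygous groups), 7 had a highest library set apart from the next by more of the range than the 95% limit of Dixon's test for 4 samples. The usual rate of about 1 in 20 sets by chance does not apply to 6 of these 7, where the other 3 libraries were at 0 and the gap is the whole range whatever the level, so they describe low counts and show no library to be an outlier. In heterozygous valves with short telomeres library 2 (by rising fragment total) was apart for Gp9, by 0.912 of the range (70.5 FPKM), and by 1.0 of the range for Gp1bb, Gp5, Gp6 and Treml1, where the other 3 libraries were at 0. In heterozygous valves with long telomeres the gap was 1.0 of the range for Gp6 in library 3, on 11 fragments, and for Treml1 in library 4, on 1 fragment. Of the 7, Gp9 with short telomeres is the one with fragments in all 4 libraries. The sets come from the same few libraries and are not independent.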

How the results depend on the processing

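No paired analysis was possible because the deposited values carry no replicate number. With no pseudocount the median log2 fold of the 6 genes was -6.59 for heterozygous against wild-type valves with long telomeres, -4.43 with short telomeres, 1.38 for short against long telomeres in heterozygous valves, and -5.21 for heterozygous with short against wild type with long telomeres. With a pseudocount of 0.1 the first and last of these were -6.40 and -5.13. A smaller pseudocount enlarges the folds of low values by construction. Scaling to the median gene, scaling without mitochondrial genes and members at a mean of 10 FPKM or more kept the direction of every median; of single genes, Gp5 in the telomere comparison of wild-type valves turned to -0.12 when scaled without mitochondrial genes. Using a ratio of 4 or 2 in place of the calls moved no count of the 5 comparisons by over 1.5 times, and exchanging columns 8 and 9, chosen after seeing the data, gave 5 with long and 6 with short telomeres.

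Leaving out 1 library at a time, the median of Gp1bb, Gp5, Gp6 and Treml1 ranged from -5.38 to -5.02 with long telomeres, from -4.59 to -1.66 with short telomeres, from -2.75 to 0.064 for telomeres in wild-type valves, from -0.55 to 0.95 for telomeres in heterozygous valves, and from -5.44 to -4.16 for both changes. Single genes that changed sign did so between groups of different telomere length. In wild-type valves Gp1bb ranged from -3.06 to 0.33 and was positive, at 0.21 and 0.33, without short-telomere library 1 or 3, and Gp5 ranged from -2.73 to 0.79 and was negative without library 2. In heterozygous valves Gp1bb ranged from -0.90 to 1.38, Gp6 from -0.62 to 1.16 and Treml1 from -0.033 to 1.12, each negative without short-telomere library 2 alone. Wild-type libraries with long telomeres were not left out, since several sets of values fit. The members' share of platelet FPKM had log2 ratios of -4.00 with long and -2.84 with short telomeres over the platelet contents, against -1.84 and -0.92 over Itga2b. Depth limits the lowest values: in the library of 735652 fragments 3 fragments of Gp1bb are worth 6.32 FPKM.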
